A study of Mus musculus with 12 samples.

Results

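The genes described here encode 9 costimulatory receptors of T cells, chosen by name: Tnfrsf4, Tnfrsf9, Tnfrsf18, Tnfrsf1b, Cd27, Cd28, Icos, Cd226 and Slamf6. Each was found once, by identifier through GENCODE M21 mouse, in both deposited tables of 55487 gene identifiers, and each passed the low-count filter in both. The cells were CD8+ T cells of OT-1 mice, a line in which a transgene fixes the T cell receptor to one ovalbumin peptide, so the cells do not represent a mixed repertoire. Female and Male samples were spleen cells of each sex stimulated with anti-CD3/CD28 beads and recombinant IL2, collected after 3 days. WT and KD samples came from male cells of another batch, kept in culture for 3 days after electroporation. For KD, Cas9 was delivered together with guide RNA against Kdm5d, a Y-linked histone demethylase, while the WT control had the guide RNA only. No group received Cas9 without that guide, so Cas9 and lower Kdm5d cannot be told apart in KD. The beads used on the Female and Male cells bind CD28 itself, a receptor described here. The bead stimulation is stated for Female and Male. For WT and KD it is not given in the sources used here, nor are the age of the mice and the number behind the samples. Each group held 3 samples, and p-values measure only the spread between these samples, which may be technical.

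Costimulatory receptors deliver the second signal that, with the T cell receptor, sets how far a T cell divides, survives and makes cytokines. Cd28 and Icos belong to the immunoglobulin superfamily, bind B7-family ligands on antigen-presenting cells, and signal through phosphoinositide 3-kinase. Tnfrsf4 (OX40), Tnfrsf9 (CD137), Tnfrsf18 (GITR), Tnfrsf1b (the second TNF receptor) and Cd27 belong to the TNF receptor superfamily, bind TNF-family ligands, and recruit TRAF adaptors that feed the NF-kB pathway. Cd226 (DNAM-1) binds Pvr and Nectin2 in competition with the inhibitory receptors Tigit and Cd96. Slamf6 (Ly108) binds itself on neighbouring cells and signals through the adaptor SAP, encoded by Sh2d1a. Cd27 and Cd28 are present on resting T cells, whereas Tnfrsf4, Tnfrsf9 and Icos are known to appear after activation. Slamf6 is widely used as a marker of less differentiated CD8 T cells.

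Total counts ran from 78748647 to 110803318 per sample, and the 9 genes held between 336 and 62633 counts in any sample. The summed level of 7 CD8 T cell markers was 2301 to 3246 CPM (counts per 1000000 counts of a library). At an adjusted p under 0.05 (edgeR), Thy1 was higher in Male, with a log2 fold change of 0.56. Cd8a, Cd8b1 and Cd2 were lower in Male, at -0.10, -0.18 and -0.16. In KD, 4 of the 7 were lower and 0 higher, where 18.4% and 16.8% of all genes were. By contrast, Cd4 was at 0 to 0.2006 CPM. Zbtb7b, the other CD4 lineage marker listed, was at 38.7 to 87.3 CPM and lower in Male by a log2 fold change of -0.72 (adjusted p 2.69e-08 by edgeR). The 5 listed B cell markers summed to 3.81 to 6.49 CPM, most of it Cd79b, with Ms4a1 at 0 in all 12 samples, and Cd79b was lower in KD (log2 fold change -0.45, adjusted p 0.0209 by edgeR). The summed NK cell markers stayed between 0.165 and 1.6 CPM. Of these, Klrb1c was lower in KD (log2 fold change -0.86, adjusted p 0.041 by edgeR). The 4 listed stromal or endothelial markers summed to 29.6 to 45.5 CPM, most of it Pecam1. Pecam1 was lower in Male and in KD, at -0.18 and -0.25 (adjusted p 0.00136 and 0.00161 by edgeR). Col1a2, at most 0.7003 CPM, was higher in both, at 1.65 and 1.096 (adjusted p 0.00394 and 0.0165 by edgeR). The part of such cells in the receptor results was not tested. Kdm5d was at 48.4, 51.9 and 52.4 CPM in WT and at 21.4, 21.8 and 22.9 CPM in KD. Levels in the 2 tables were scaled separately, so differences were tested only within a table.

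Promoters of 4 members are shown first, because Tnfrsf9 moved against Tnfrsf4 and Slamf6 in both comparisons, and Tnfrsf18 is the neighbour of Tnfrsf4. Each sequence is the 250 bases before a RefSeq transcription start (GRCm38.p6), on the gene's own strand, 5′ to 3′. Capitals mark matches to the NF-kB consensus, to the AP-1 motif TGANTCA or to the STAT motif TTCNNNGAA, searched on both strands. The windows are chr4:156013445-156013694 (plus strand) for Tnfrsf4, chr1:171917212-171917461 (plus strand) for Slamf6 and chr4:156026072-156026321 (plus strand) for Tnfrsf18. Those for the outer and inner of the RefSeq starts found for Tnfrsf9 are chr4:150919905-150920154 and chr4:150927749-150927998 (plus strand). Both of these starts lie inside the Tnfrsf9 gene of GENCODE M21, which begins at 150914562, and no window was found for that beginning. The Tnfrsf18 window runs past the M21 beginning of its gene, 156026164, and its STAT match lies past that point. The first part of the Tnfrsf4 window lies inside the neighbouring gene Sdf4, which ends at 156013610.
Tnfrsf4: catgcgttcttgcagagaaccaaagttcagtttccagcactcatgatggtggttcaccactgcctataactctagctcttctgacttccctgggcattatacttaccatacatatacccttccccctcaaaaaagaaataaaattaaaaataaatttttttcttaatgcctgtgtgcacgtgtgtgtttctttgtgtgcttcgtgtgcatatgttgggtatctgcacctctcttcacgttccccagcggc
Slamf6: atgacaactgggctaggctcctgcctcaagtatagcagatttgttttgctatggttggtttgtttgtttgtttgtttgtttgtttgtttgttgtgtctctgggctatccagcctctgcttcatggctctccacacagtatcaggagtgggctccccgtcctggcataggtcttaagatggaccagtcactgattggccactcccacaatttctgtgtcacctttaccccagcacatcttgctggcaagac
Tnfrsf18: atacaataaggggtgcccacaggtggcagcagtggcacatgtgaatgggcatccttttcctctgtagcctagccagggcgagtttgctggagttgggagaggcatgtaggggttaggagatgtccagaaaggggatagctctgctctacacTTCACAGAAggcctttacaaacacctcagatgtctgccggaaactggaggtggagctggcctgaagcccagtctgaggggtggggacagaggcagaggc
Tnfrsf9, outer start: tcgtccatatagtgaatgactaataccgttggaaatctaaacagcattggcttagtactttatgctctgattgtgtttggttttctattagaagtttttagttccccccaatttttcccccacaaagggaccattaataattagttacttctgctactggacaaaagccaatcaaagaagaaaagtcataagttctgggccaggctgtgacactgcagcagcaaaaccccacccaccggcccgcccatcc
Tnfrsf9, inner start: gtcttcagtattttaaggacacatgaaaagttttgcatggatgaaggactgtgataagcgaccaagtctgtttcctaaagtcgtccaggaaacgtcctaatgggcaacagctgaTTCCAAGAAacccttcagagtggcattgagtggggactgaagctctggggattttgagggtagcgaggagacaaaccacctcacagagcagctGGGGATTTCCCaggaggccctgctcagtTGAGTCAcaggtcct

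The inner Tnfrsf9 window held the NF-kB consensus as 2 overlapping matches, GGGGATTTCC and GGGATTTCCC, 43 to 33 bases before the start. It also held 1 AP-1 match, TGAGTCA, 15 to 9 bases before the start, and 1 STAT match, TTCCAAGAA, 136 to 128 bases before it. Of 32841 RefSeq windows of the same length, 7.25% held the NF-kB consensus, 6.75% the AP-1 motif and 7.02% the STAT motif. The Tnfrsf18 window held 1 STAT match, TTCACAGAA, and the windows of Tnfrsf4, Slamf6 and the outer Tnfrsf9 start held none of these 3 motifs. The Tnfrsf1b window held 1 STAT match as well, TTCCCGGAA. Windows were taken for 6 of the 9 genes, and not for Cd28, Icos and Cd226. Chromosome 18, where Cd226 lies, was left out when the windows of the members were taken. The short NFAT core GGAAA, which lay in 55.6% of all windows and overlaps the NF-kB match of Tnfrsf9, was found 3 times in the inner Tnfrsf9 window, 2 times each in the outer Tnfrsf9 and Tnfrsf18 windows, and once each in those of Tnfrsf4 and Cd27. It was not found in the windows of Slamf6 and Tnfrsf1b. The TCF motif CTTTGA, in 13.8% of all windows, was found once, in the outer Tnfrsf9 window. A match describes letters and not binding, and the counts per gene do not tell which Tnfrsf9 start was used.

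Male cells held less RNA of most costimulatory receptors than Female cells after activation. Of the 9 genes, 8 were called at an adjusted p under 0.05 (edgeR), against 49.8% of 20208 genes tested. Of these, 6 were lower in Male, where 26.3% of all genes were, and 2 were higher, where 23.5% were. The 2 that fell by at least 1 log2 unit were Tnfrsf4 and Slamf6, and 3.82% of all genes fell and 3.46% rose by that much, 7.28% in all. The samples of the 2 groups did not overlap in any of the 9 genes, as in 58.3% of all genes. Their median log2 fold change was -0.62, against 0.01 over all genes, and the median absolute change was 0.62 against 0.33. In RNA from bulk samples, fewer cells of a type and less RNA per cell cannot be told apart.

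**Figure D1:**
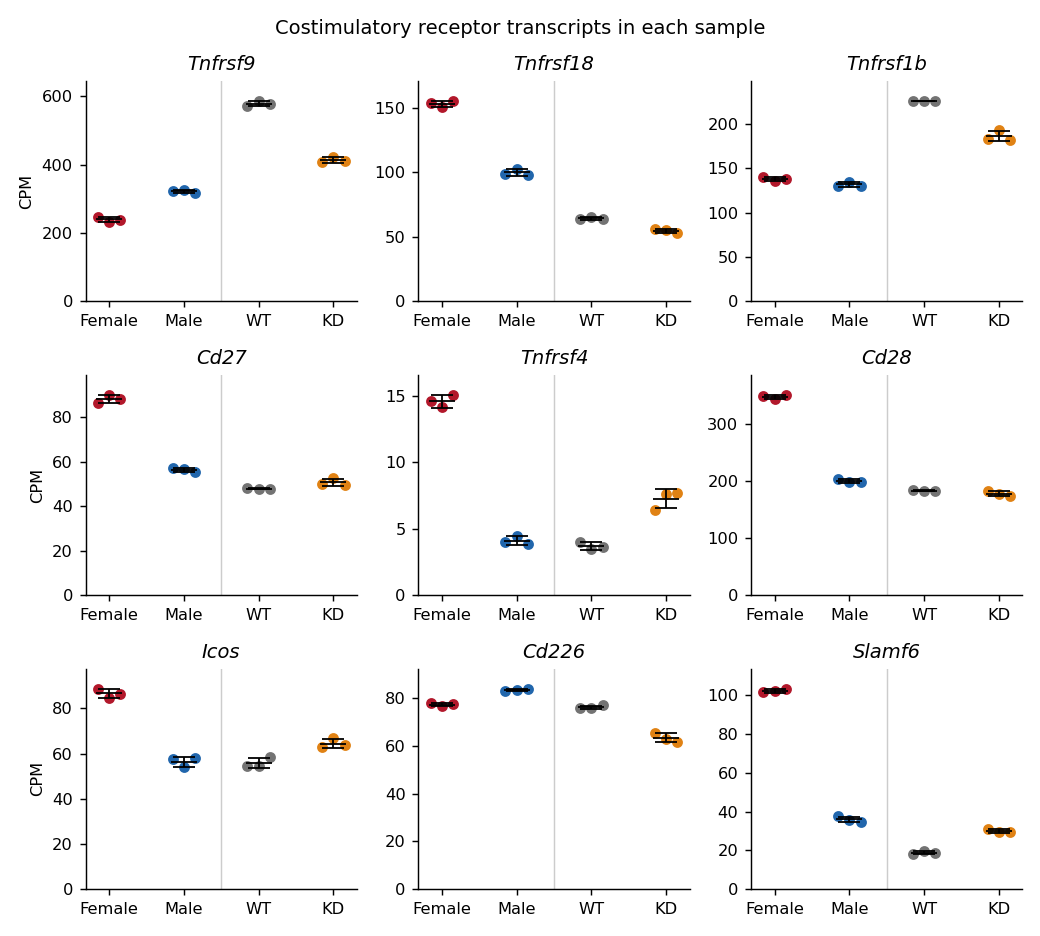
Level of each receptor gene in CPM (vertical axes, from 0) in the 3 samples of Female, Male, WT and KD (points), with the mean and SD (bars); the grey line parts the 2 tables, which were scaled separately. Tnfrsf4 and Slamf6 were lower in Male than in Female and higher in KD than in WT, and Tnfrsf9 the reverse.

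Among the immunoglobulin superfamily receptors, Cd28 was at 349, 345 and 352 CPM in Female and at 204, 198 and 199 CPM in Male. Cd28, the main receptor for Cd80 and Cd86, was thus lower in each Male sample, with a log2 fold change of -0.80 (± 0.021 SE, with adjusted p 6.59e-10 by edgeR). Icos, the inducible relative of Cd28, was at 88.8, 84.8 and 86.4 CPM in Female and 57.4, 53.9 and 57.9 CPM in Male. Every Male sample lay below every Female sample, and Icos fell by 0.62 on the log2 scale (± 0.033 SE, with adjusted p 1.07e-07 by edgeR). Cd226, the adhesion receptor that promotes killing, went the other way. Its CPM were 77.9, 76.9 and 77.4 in Female and 83.2, 83.5 and 84.1 in Male. The groups were separate but the difference was small, a log2 fold change of 0.11 (± 0.022 SE, with adjusted p 0.00201 by edgeR), and 80.8% of all tested genes changed by at least as much.

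Among TNF receptors, Tnfrsf4 differed most. It was at 14.6, 14.1 and 15.1 CPM in Female and at 3.98, 4.46 and 3.87 CPM in Male. Male was therefore at 28.1% of Female, with a log2 fold change of -1.83 (± 0.080 SE, with adjusted p 2.65e-08 by edgeR), and 2.04% of all genes changed by at least as much. Tnfrsf18, which restrains the effect of regulatory T cells and costimulates effector cells, was at 154, 151 and 155 CPM in Female and 99.1, 103 and 98 CPM in Male. Cd27, the receptor for Cd70, was at 86.3, 90.1 and 88.4 CPM in Female and 57.1, 56.9 and 55.2 CPM in Male. Both were lower in all 3 Male samples and fell by similar amounts, with log2 fold changes of -0.62 for Tnfrsf18 (± 0.027 SE) and -0.65 for Cd27 (± 0.027 SE, with adjusted p 2.44e-08 and 2e-08 by edgeR). Tnfrsf9, a receptor that is induced on CD8 T cells by antigen, was higher in Male. Its CPM were 248, 233 and 239 in Female and 322, 325 and 318 in Male, a log2 fold change of 0.42 (± 0.025 SE, with adjusted p 2.53e-07 by edgeR). Tnfrsf1b, the receptor for membrane-bound TNF, was at 141, 136 and 138 CPM in Female and 130, 135 and 131 CPM in Male. That narrow gap had a log2 fold change of -0.07 (± 0.026 SE, with adjusted p 0.0516 by edgeR) and missed the threshold. Its 95% normal interval ran from -0.12 to -0.02, and other settings placed the gene on either side of the threshold.

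Slamf6, the SLAM family member, was at 102, 102 and 103 CPM in Female against 37.5, 35.6 and 34.7 CPM in Male. No sample of either group came near the other, and Male was at 35.1% of Female, with a log2 fold change of -1.51 (± 0.032 SE, with adjusted p 1.86e-10 by edgeR). By exact permutation of the CPM, two-sided, each of the 9 genes had p = 0.1, the smallest that 3 against 3 samples allow.

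Markers of regulatory T cells, which carry Tnfrsf4, Tnfrsf18 and Icos at high levels, were measured beside these results. The summed level of the 3 listed markers was 182 to 194 CPM in Female, 85.6 to 90.3 in Male, 96.5 to 102 in WT and 94.9 to 100 in KD, and none of the 3 was at 0. Ikzf2, which is also made by activated CD8 T cells, held most of the sum in Female and Male, and Ikzf4 most of it in WT and KD. Ikzf2 was lower in Male, with a log2 fold change of -1.60 (adjusted p 1.45e-10 by edgeR). Ikzf4 was lower there too, at -0.18, and missed the threshold in KD, at -0.09 (adjusted p 0.00871 and 0.0628 by edgeR). The lineage factor Foxp3 was at 2.03 to 3.42 CPM in Female and 3.96 to 5.21 CPM in Male, a log2 fold change of 0.63 (adjusted p 0.0208 by edgeR). In KD, Foxp3 was lower, with a log2 fold change of -0.86 (adjusted p 0.00243 by edgeR), and Ikzf2 was at 0.13 (adjusted p 0.0505 by edgeR). Cd4 was at 0.149 to 0.201 CPM in Female and at 0 in Male. The part of these markers in the receptor results was not tested.

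Between KD and WT the receptors moved in both directions and by smaller amounts. Of the 9 genes, 7 were called, against 35.1% of 20413 genes tested. The 3 higher in KD, where 16.8% of all genes were, were Tnfrsf4, Slamf6 and Icos. The 4 lower in KD, where 18.4% of all genes were, were Tnfrsf9, Tnfrsf1b, Cd226 and Tnfrsf18. None changed by 1 log2 unit, a size that 2.29% of all genes passed upward and 1.67% downward, 3.96% in all. Tnfrsf4 passed it, at 1.02 and 1.04, when WT replicate 1 or KD replicate 1 was left out. WT and KD samples did not overlap in any of the 9, as in 46.8% of all genes. Their median log2 fold change was -0.04, against 0.01 over all genes, and the median absolute change 0.27 against 0.21.

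Tnfrsf4 was at 4.03, 3.49 and 3.64 CPM in WT and 6.43, 7.65 and 7.67 CPM in KD. The lowest KD sample stood well above the highest WT sample, and KD was at 195% of WT, a log2 fold change of 0.96 (± 0.107 SE, with adjusted p 5.72e-05 by edgeR). Slamf6 was at 17.8, 19.4 and 18.8 CPM in WT and 31.2, 29.7 and 29.2 CPM in KD. It rose in all 3 KD samples, by 0.69 on the log2 scale (± 0.047 SE, with adjusted p 1.88e-06 by edgeR). Icos rose less, from 54.4, 54.6 and 58.4 CPM in WT to 62.8, 66.9 and 63.6 CPM in KD, a log2 fold change of 0.21 (± 0.040 SE, with adjusted p 0.00228 by edgeR).

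Tnfrsf9 was at 573, 586 and 576 CPM in WT and 407, 423 and 411 CPM in KD. KD stood at 71.5% of WT, and the log2 fold change was -0.48 (± 0.020 SE, with adjusted p 5.15e-08 by edgeR), the smallest adjusted p among the 9 genes in this comparison. Tnfrsf1b was at 226, 226 and 226 CPM in WT and 184, 193 and 183 CPM in KD. The WT samples were nearly equal and all above KD, and the log2 fold change was -0.28 (± 0.025 SE, with adjusted p 1.58e-05 by edgeR). Cd226 was at 75.8, 76 and 77 CPM in WT and 65.6, 62.9 and 61.9 CPM in KD, with a log2 fold change of -0.27 (± 0.032 SE, with adjusted p 9.26e-05 by edgeR). Tnfrsf18 was at 63.6, 65.7 and 63.7 CPM in WT and 55.9, 55.5 and 53.1 CPM in KD, with a log2 fold change of -0.23 (± 0.033 SE, with adjusted p 0.000365 by edgeR). Each of these 3 receptors was lower in all KD samples.

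Cd27 and Cd28, the receptors of resting cells, did not pass the threshold in KD. Cd27 was at 48.2, 47.9 and 47.5 CPM in WT and 50, 52.5 and 49.7 CPM in KD, with a log2 fold change of 0.08 (± 0.035 SE, with adjusted p 0.09 by edgeR) and an interval of 0.02 to 0.15. Cd28 was at 184, 183 and 183 CPM in WT and 182, 178 and 175 CPM in KD. The 3 KD values were all slightly lower, with a log2 fold change of -0.04 (± 0.023 SE, with adjusted p 0.21 by edgeR), and the 95% normal interval was -0.09 to 0.00. In KD against WT too the exact two-sided permutation test gave p = 0.1 for each of the 9 genes.

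**Figure D2:**
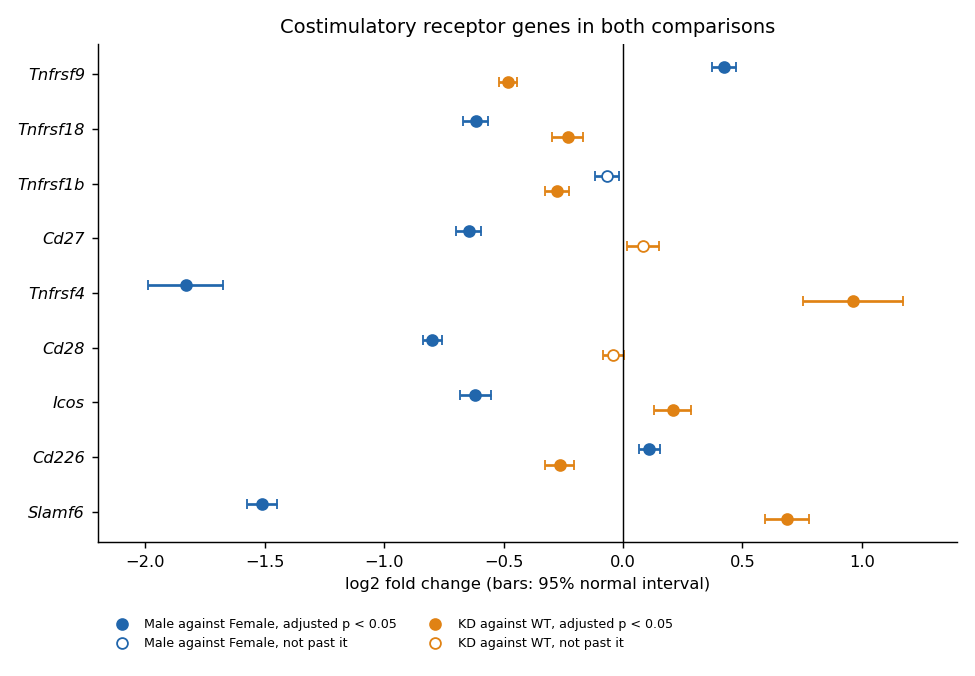
Log2 fold change of each receptor gene (horizontal axis) for Male against Female (blue) and KD against WT (orange), with 95% normal intervals as bars; open points missed the threshold. Tnfrsf4, Slamf6 and Icos lie left of 0 in blue and right of 0 in orange, and Tnfrsf9 and Cd226 the reverse.

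The 2 comparisons share no sample. Of the 6 receptor genes called in both, 5 moved in opposite directions, where 55.1% of the 5009 genes called in both did. Tnfrsf4, Slamf6 and Icos were lower in Male and higher in KD, whereas Tnfrsf9 and Cd226 rose in Male and fell in KD. Tnfrsf18 was lower in both. Electroporation, batch and table differ between Male and WT, so no comparison between them was made.

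Levels of different genes were compared after division by the summed length of their exons, as CPM per kb. In Female the order was Tnfrsf18 at 100.7, Tnfrsf9 at 88.1, Cd28 at 56.9, Cd27 at 37.9, Tnfrsf1b at 36.2, Icos at 25.3, Cd226 at 15.8, Tnfrsf4 at 10.7 and Slamf6 at 9.45 CPM per kb. Neighbours in that order had ranges that did not overlap. In Male, Tnfrsf9 led at 118 CPM per kb ahead of Tnfrsf18 at 65.6. Slamf6 at 3.32 and Tnfrsf4 at 3.00 CPM per kb closed the Male order, and these 2 overlapped, the one such pair of neighbours in the 4 groups. In WT and KD, Tnfrsf9 again led, at 212 and 152 CPM per kb, followed by Tnfrsf1b at 59.2 and 48.9. Slamf6 stood last in both, at 1.72 and 2.77 CPM per kb. Its annotated exons sum to 10832 bases, the longest of the 9, and exons that these cells do not use would lower its value on this scale.

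The summed level of the 9 genes was 375 to 385 CPM per kb in Female, 312 to 319 in Male, 398 to 404 in WT and 323 to 335 in KD. Tnfrsf9 made up 23.1% of the sum in Female, 37.5% in Male, 53% in WT and 46.4% in KD. The 5 TNF receptors together took 71.7% to 71.9% in Female, 77.6% to 78.5% in Male, 83.9% to 84.4% in WT and 80.2% to 80.8% in KD.

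**Figure D3:**
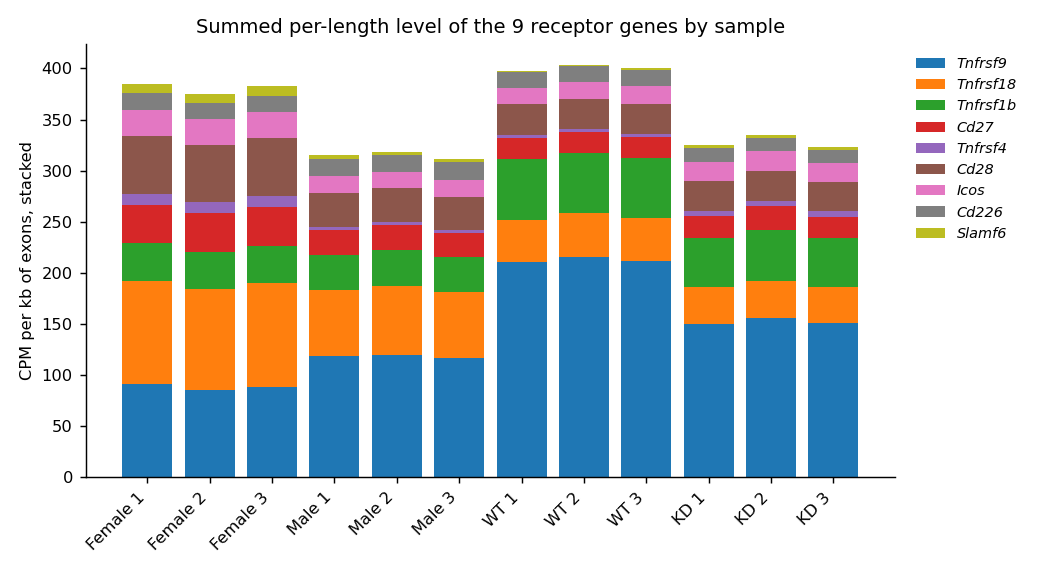
Stacked per-length level (CPM per kb of exons, from 0) of the 9 receptor genes in each of the 12 samples. The Female and WT sums exceed those of Male and KD, and the Tnfrsf9 share is smallest in Female, at 23.1%.

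Receptors that compete for the same ligands were set side by side as ratios of CPM per kb. Ctla4, which takes Cd80 and Cd86 away from Cd28, was at 690, 685 and 685 CPM for Female samples, 243, 236 and 238 for Male samples, then 80.7, 80 and 82.1 among WT samples, and 110.7, 102 and 112.8 among KD samples. It fell in Male by more than Cd28 did, with log2 fold changes of -1.52 and -0.80. The ratio of Cd28 to Ctla4 was 0.191 to 0.195 in Female and 0.317 to 0.320 in Male, so the Male samples had less Cd28 RNA but more of it per Ctla4 RNA. In WT the ratio was 0.850 to 0.870 and in KD 0.589 to 0.665. Ctla4 rose in KD by 0.42 on the log2 scale (adjusted p 1.37e-05 by edgeR).

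Tigit fell in Male by 0.96 on the log2 scale (adjusted p 7.57e-08 by edgeR), from 38.3 to 19.7 CPM on average, and Cd96 fell by 0.33 (adjusted p 2.17e-06 by edgeR). Pvrig, also listed as a competitor of Cd226, went the other way in Male, at 1.56 (adjusted p 0.0107 by edgeR). Its level was low, on average 0.19 CPM in Female and 0.57 CPM in Male. In KD, Pvrig was lower, at -1.07 (adjusted p 0.00126 by edgeR). The ratio of Cd226 to Tigit was 0.355 to 0.406 in Female and 0.788 to 0.812 in Male, with no overlap. In WT it was 0.464 to 0.516 and in KD 0.377 to 0.430, where Tigit itself had a log2 fold change of 0.03 (adjusted p 0.735 by edgeR). The ratio of Cd226 to Cd96 was 0.360 to 0.364 for Female samples and 0.479 to 0.510 for Male samples, with no overlap. It was 0.281 to 0.289 in WT and 0.272 to 0.287 in KD, and these ranges overlapped. Tnfrsf18 and Tnfrsf4 lie in tandem 9552 bases apart and yet changed unequally. Their ratio was 9.22 to 9.55 in Female, 20.7 to 22.7 in Male, 14.1 to 16.9 in WT and 6.20 to 7.79 in KD. Ratios within a sample show unequal change of the pair and were not tested.

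**Figure D4:**
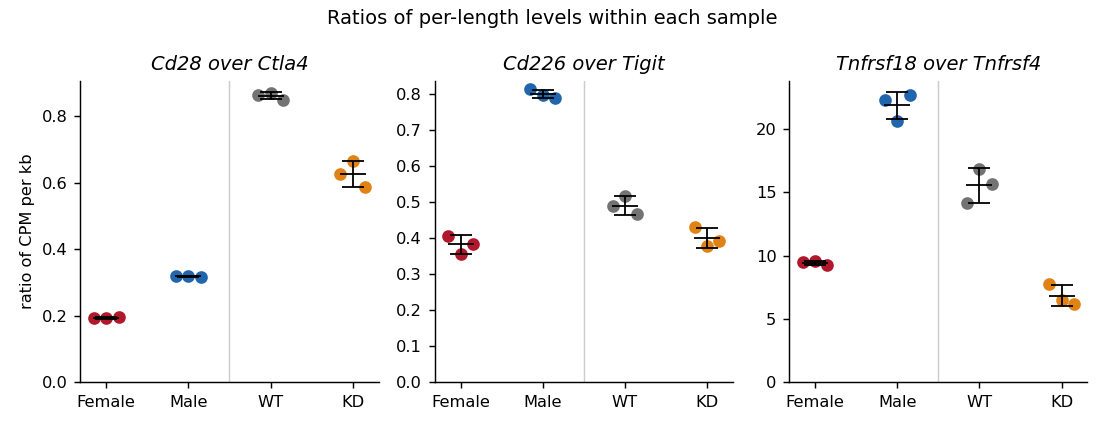
Ratio of CPM per kb (vertical axes, from 0) of Cd28 to Ctla4, Cd226 to Tigit, and Tnfrsf18 to Tnfrsf4 in each sample (points), with mean and SD. Each ratio was higher in Male than in Female and lower in KD than in WT, with no overlap within either table.

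The ligands of these receptors are mostly made by antigen-presenting cells, but T cells make some. Of 6 TNF-family ligands listed, 4 were tested in each comparison. In Male, 3 were higher, with a median log2 fold change of 0.80, where 23.5% of all genes were higher. Tnf was at 31, 33.7 and 32.7 CPM in Female and 65.9, 71.2 and 65 CPM in Male, and Lta averaged 68 and 138.3 CPM. Their log2 fold changes were 1.05 for Tnf and 1.02 for Lta (adjusted p 2.07e-08 and 2.21e-09 by edgeR). In KD, 2 were lower and 2 higher, where 35.1% of all genes were called. Lta fell by 0.49 and Tnf by 0.24 on the log2 scale (adjusted p 1.01e-06 and 0.000967 by edgeR), whereas Tnfsf4, the ligand of Tnfrsf4, rose from 6.03 to 9.87 CPM on average (log2 fold change 0.71, edgeR adjusted p 4.06e-05). Cd70 and Tnfsf18, the ligands of Cd27 and Tnfrsf18, did not pass the filter and had at most 9 and 8 counts in a sample.

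Of 5 listed B7-family and other ligands, 3 were higher and 1 lower in Male, where 49.8% of all genes were called, and 2 were higher and 3 lower in KD, where 35.1% were. The Cd28 ligands moved apart. Cd80 was at 8.64, 9.34 and 8.31 CPM in Female and 3.63, 3.87 and 3.53 CPM in Male, and Cd86 at 1.9, 1.86 and 1.4 CPM in Female and 4.2, 4.21 and 4.7 CPM in Male. Their log2 fold changes were -1.25 and 1.35 in Male, and 0.37 and -1.64 in KD (adjusted p 1.28e-06, 2.84e-05, 0.000171 and 7.08e-05 by edgeR). The summed level of 7 myeloid and dendritic cell markers was 2.52 to 3.31 CPM in Female, 3.83 to 3.95 in Male, 9.75 to 10.9 in WT and 5.21 to 6.34 in KD. Of these 7 markers, Cd68 moved in the direction of Cd86, with log2 fold changes of 0.55 in Male and -0.58 in KD (adjusted p 0.00393 and 0.00132 by edgeR). Itgax did so in KD, at -1.60 (adjusted p 0.00016 by edgeR), and was at 0.14 in Male (adjusted p 0.728 by edgeR). Csf1r differed little, at 0.03 in Male and 0.04 in KD (adjusted p 0.974 and 0.943 by edgeR). Cd14, tested in KD against WT only, went the other way at 2.70 but missed the threshold (adjusted p 0.0626 by edgeR). It had at most 19 counts in a KD sample. Adgre1 and Cd14 were at 0 in Female, Lyz2, Cd14 and Flt3 in Male, Adgre1 in WT, and Adgre1 and Flt3 in KD. The part of such cells in the Cd86 and Tnfsf4 values was not tested.

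Downstream of the TNF receptors, all 22 listed TRAF and NF-kB pathway genes were tested. In Male, 17 were lower and 1 was higher, with a median log2 fold change of -0.48 against 0.01 over all genes, of which 26.3% were lower and 23.5% higher. Traf1, the adaptor induced with Tnfrsf9 signalling, was at 193, 195 and 201 CPM in Female and 120, 121 and 119 CPM in Male. Relb, a subunit of the noncanonical pathway, averaged 73.5 and 33.7 CPM. The log2 fold changes were -0.71 for Traf1, -1.12 for Relb, -0.92 for Tnfaip3 and -0.84 for Nfkbia, the last 2 being feedback inhibitors of NF-kB (adjusted p 3.52e-09, 4.22e-09, 1.04e-08 and 3.29e-08 by edgeR). Chuk, a kinase subunit, was the one higher in Male, at 0.27. In KD, 8 were lower and 3 higher, with a median of -0.03, where 18.4% of all genes were lower and 16.8% higher. Traf1, Nfkb1 and Birc3 fell by 0.38, 0.22 and 0.44 on the log2 scale, and Tnfaip3 rose by 0.40 (adjusted p 6.38e-07, 9.13e-06, 4.66e-05 and 0.000153 by edgeR).

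The 19 listed genes of Cd28 and Icos signalling were also all tested. In Male, 11 were lower and 5 higher, with a median log2 fold change of -0.22, where 26.3% and 23.5% of all genes were. Grap2, Malt1 and Pik3cd fell by 0.34, 0.36 and 0.29 on the log2 scale, while Akt1 rose by 0.56 (adjusted p 2.86e-08, 6.7e-08, 6.7e-08 and 9.84e-09 by edgeR). In KD, 15 were lower, with a median of -0.29, where 18.4% of all genes were lower. Lck, the kinase that starts receptor signalling, fell from 761.4 to 595.2 CPM on average, and Prkcq from 237.6 to 178.8 CPM. Their log2 fold changes were -0.36 and -0.41 (adjusted p 1.04e-07 and 1.61e-07 by edgeR). Cd28 itself missed the threshold there, as given above.

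The receptors have relatives in the same families. Of 20 other TNF receptor family genes, 14 were tested in Male against Female, with 2 higher and 6 lower, and 17 in KD against WT, with 7 higher and 5 lower. The shares called over all genes were 49.8% and 35.1%, so the Male count is near the background. Fas, the death receptor, was at 16.6, 16.4 and 17.6 CPM for Female samples, 8.53, 9.36 and 8.4 for Male samples, then 5.47, 5.28 and 5.62 among WT samples, and 9.78, 9.78 and 9.05 among KD samples. It was thus lower in Male and higher in KD, with log2 fold changes of -0.95 and 0.81 (adjusted p 7.48e-07 and 1.7e-05 by edgeR). Tnfrsf13b went the same way, at -0.56 and 0.28, both called. Tnfrsf26 was lower in Male, at -0.85, and not called in KD, at 0.05 (adjusted p 0.369 by edgeR). Tnfrsf1a was called lower in both, at -0.32 and -0.23. Of 12 SLAM family and SAP genes, 8 were tested in Male, with 5 higher and 3 lower, and 10 in KD, with 0 higher and 5 lower. Over all genes, 23.5% were higher and 26.3% lower in Male, and 16.8% and 18.4% in KD. Slamf7 and Cd244a, SLAM receptors of cytotoxic cells, moved against Slamf6, with log2 fold changes of 1.71 and 1.70 in Male and -0.52 and -1.45 in KD (adjusted p 4.47e-10, 2.17e-06, 3.45e-07 and 3.6e-09 by edgeR). Cd48, Ly9 and the kinase Fyn did so as well, at 0.60, 0.62 and 0.38 in Male and -0.46, -0.25 and -0.45 in KD, all called. Slamf1 and Cd84 went with Slamf6 in Male, at -0.60 and -0.19, and were not called in KD. Sh2d1a, which encodes the SAP adaptor of Slamf6, fell in Male by 0.87 (adjusted p 7.73e-07 by edgeR) and had a log2 fold change of 0.05 in KD (adjusted p 0.656 by edgeR). The inhibitory receptors Ctla4, Btla and Pdcd1 were all 3 lower in Male. In KD, Ctla4 was higher and Btla and Pdcd1 were lower, with log2 fold changes of 0.42, -0.35 and -0.54.

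**Figure D5:**
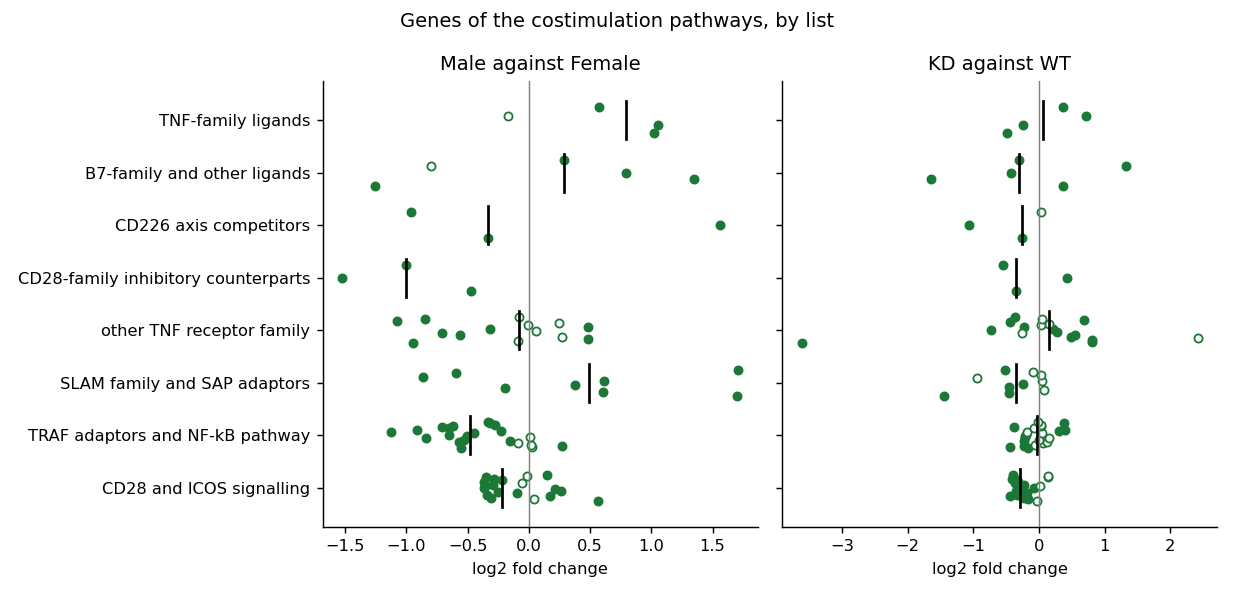
Log2 fold change (horizontal axes, of unequal range) of each tested gene of 8 lists (rows) for Male against Female and KD against WT; filled points were called, open points were not, and black bars are medians. In Male the TRAF and NF-kB list lies mostly left of 0, with 17 genes lower, and in KD the Cd28 and Icos signalling list does, with 15 genes lower.

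The members were also compared among themselves and with other protein-coding genes by the Pearson correlation of log2 CPM over the 12 samples, each table centred on its mean. The points fall into 4 groups, so the values mostly describe the group differences and carry no test. Tnfrsf4 and Slamf6 correlated at 0.984, Cd27 and Cd28 at 0.977, Icos and Slamf6 at 0.977, and Tnfrsf9 and Cd226 at 0.923, whereas Tnfrsf9 and Tnfrsf4 correlated at -0.917. Among 10480 protein-coding genes, Phlpp1 was the most like Slamf6 at 0.998, Dlst the most like Tnfrsf9 at 0.997, Sp3 the most like Cd28 at 0.998 and Ttyh3 among the 2 most like Tnfrsf4 at 0.995. The genes most like Cd226 were Il10rb at 0.988 and Chac1 at 0.987.

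By position, 4 of the 5 TNF receptor genes lie on chromosome 4 in GENCODE M21 (GRCm38): Tnfrsf1b (ENSMUSG00000028599) at 145213463 to 145246870, Tnfrsf9 (ENSMUSG00000028965) at 150914562 to 150946102, Tnfrsf4 (ENSMUSG00000029075) at 156013843 to 156016612 and Tnfrsf18 (ENSMUSG00000041954) at 156026164 to 156028895. Cd27 (ENSMUSG00000030336) lies on chromosome 6 at 125232622 to 125237010. Cd28 (ENSMUSG00000026012) at 60716800 to 60773359 and Icos (ENSMUSG00000026009) at 60977927 to 61000320 flank Ctla4 on chromosome 1, which also holds Slamf6 (ENSMUSG00000015314) at 171917515 to 171953170. Cd226 (ENSMUSG00000034028) lies on chromosome 18 at 89176967 to 89272229. Transcripts of the 9 shared at most 3.42% of their 31-base subsequences with another gene, which was Cd27 with the microRNA gene inside it. An antisense gene covers 27.2% of the exonic bases of Tnfrsf18, and reads of the pair cannot be told apart unless strand was used. That gene, Gm16008, averaged 2.69 to 4.45 CPM in the 4 groups, against 54.8 to 154 CPM for Tnfrsf18.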

How the data were processed

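RNA was measured by sequencing of 12 samples. Libraries were made with a stranded total RNA kit that removes ribosomal RNA, per the labels' protocols. The authors deposited 2 tables of gene counts, whole numbers with a different total per sample. The submitters' processing notes name bcl2fastq 2.20.0, HISAT2, StringTie, DESeq2 and the build mm10. The counting tool, annotation and use of strand are not given in the sources used here. If the counts came from StringTie, they were estimated from coverage, and 1 count need not be 1 read. Symbols, positions and exon lengths came from GENCODE M21, which matched 55227 identifiers and left 260 unmatched. The unmatched ones stayed in library sizes and tests.

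The 6 samples of a table entered one fit in edgeR 4.0.16 (R 4.3.3), with TMM, filterByExpr, the quasi-likelihood test and Benjamini-Hochberg adjustment over all tested genes, with calls at an adjusted p under 0.05. The SE was the absolute log2 fold change over the square root of F. CPM used TMM-scaled library sizes. Alternatives used DESeq2 1.42.0 and limma 3.58.1. The test was tried on simulated counts with 200 genes changed by 1 log2 unit, of which 81% were recovered for Male against Female (19799 genes) and 85.5% for KD against WT (20021 genes). In those runs 10% and 8.06% of the calls were false, more than the threshold of 0.05 aims at. The setting differs from the data, where 49.8% and 35.1% of genes were called and the median absolute change was 0.33 and 0.21. These rates therefore need not hold for smaller changes or for the data.

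The members and lists were chosen with earlier results of these data known. Named genes were the members, Kdm5d, up to 4 genes with the smallest p per list and comparison, the 2 genes most like each member, and genes within 100 kb. Some genes that the rule admits are left unnamed, and Cd70, Tnfsf18, Sh2d1a, Slamf1 and Chuk were named after their values were seen. Genes of the cell marker lists (Thy1, Cd8a, Cd8b1, Cd2, Foxp3, Ikzf2, Ikzf4, Cd4, Zbtb7b, Ms4a1, Cd79b, Klrb1c, Pecam1, Col1a2, Cd68, Itgax, Csf1r, Cd14, Adgre1, Lyz2 and Flt3) lie outside this rule and were also named after their values were seen. Promoter sequences came from RefSeq (GRCm38.p6).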

Additional observations from a re-analysis of the deposited data

How the results depend on the processing

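The log2 fold changes of the 9 genes and the counts of genes called were recomputed in 11 other fits and in 6 fits per comparison that left out 1 sample, and the counts also at 2 other thresholds. The gene lists, markers, ratios, correlations, level orders and neighbours were not. No log2 fold change of the 9 genes changed sign in any of these fits. Tnfrsf1b in Male against Female passed the threshold with no low-count filter (-0.082, adjusted p 0.0356), the DESeq2 Wald test (-0.068, 0.0365), limma-voom (-0.067, 0.0451), thinning to the smallest library (-0.074, 0.0338) and all 12 samples in one fit (-0.089, 0.0119). Its value was -0.091 to -0.061 without 1 replicate, and it passed without Female replicate 2 (adjusted p 0.0379) or Male replicate 2 (adjusted p 0.0242). Over the 11 other fits its adjusted p ran from 0.0119 to 0.647. Cd27 in KD against WT passed it with upper-quartile factors (0.114, adjusted p 0.0256) and with all 12 samples (0.085, 0.0423), over a range of 0.0256 to 0.147. The cause was not tested. With at least 1 log2 unit, 2 and 0 receptor genes were called, and 1471 and 808 of all genes, for Male against Female and KD against WT. Tnfrsf4 in KD passed 1 log2 unit without WT replicate 1 (1.024) or KD replicate 1 (1.042). Upper-quartile factors moved the split of all KD calls from 3424 higher and 3747 lower to 4002 and 3279. With the replicate number as a block, 9740 and 6688 of all genes were called, and the call of none of the 9 changed. Same-numbered samples did not deviate together: the mean correlation was 0.0053 for Male and Female and -0.0081 for KD and WT, so the number is not taken as a pairing.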

Other observations

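Genes near a receptor gene moved with it in some cases and apart from it in others. Sdf4 ends 233 bases from Tnfrsf4 and had a log2 fold change of -0.01 in Male (edgeR adjusted p 0.882) and -0.09 in KD (edgeR adjusted p 0.0233), where Tnfrsf4 had -1.83 and 0.96. C1qtnf12, 47214 bases from Tnfrsf4, was at -1.10 and 0.70 (edgeR adjusted p 4.41e-07 and 0.000256). Park7, an antioxidant gene 125 bases from Tnfrsf9, rose in Male by 0.85 (edgeR adjusted p 3.16e-09) and was at -0.08 in KD (edgeR adjusted p 0.155), and Errfi1, 45670 bases away, was at 0.54 and -0.33 (edgeR adjusted p 9.25e-06 and 3.1e-05). Around Tnfrsf1b, which missed the threshold in Male and fell in KD, Vps13d was at -0.03 and -0.24 and Tnfrsf8 at -0.08 and -0.36, with both called in KD only (edgeR adjusted p 0.0001 and 0.00028 in KD, 0.603 and 0.38 in Male). Around Slamf6, which fell by 1.51 in Male and rose by 0.69 in KD, neighbours moved unequally. Cd84, a SLAM gene 26797 bases away, fell by 0.19 in Male (edgeR adjusted p 0.000473) and was at 0.07 in KD (edgeR adjusted p 0.31). Vangl2, 47790 bases away, was at -2.565 in Male and 0.52 in KD (edgeR adjusted p 2.21e-07 and 0.473). The overlapping antisense gene Gm37065 was at -1.77 and 0.83 (edgeR adjusted p 5.04e-05 and 0.0313). Gm10521 was called in neither comparison.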
